A study of Mus musculus with 6 samples.

Results

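The 49 genes described here encode proteins that drive and carry out mitosis. They cover the mitotic cyclins and CDK1, the polo and aurora kinases, the spindle checkpoint, the kinetochore, condensin, and proteins of the spindle and of cytokinesis. Also included are the activator CDC20 and the conjugating enzyme of the anaphase-promoting complex, but not its core subunits, with separase, securin and shugoshin. The genes were taken by gene symbol from a list, from which kinesin motors other than Cenpe were left out. All 49 were among the 24062 symbols of the count table and among the 13990 genes tested. RNA was sequenced from C57BL/6 mouse embryonic fibroblasts, connective tissue cells grown from embryos. Libraries fell into 3 p27OE, from cells given p27 by lentivirus, and 3 EV control, all harvested at day 10. The sample protocol says that cells had entered senescence by then, and the p27OE titles carry that word, whereas the series design text calls the cells non-senescent. The titles of all 3 EV control samples carry a dataset number, and those of the p27OE samples carry none. What that number stands for was not tested. A batch that ran with the group could not be tested apart from it. The labels give neither the promoter of the lentivirus nor whether the 3 samples of a group were separate cultures. The p-values for the difference between groups measure the spread between these samples, part of which may be technical. Y-linked transcripts differed within both groups (values below), so the samples of a group were not all repeats of 1 culture. EV control 2 and 3 were the most alike, with a chi-square per gene of 6.51 between their counts. It was 183 and 139 between EV control 1 and each of them, and 55.5 to 188 within p27OE.

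Cells enter mitosis when CDK1 bound to cyclin A or cyclin B becomes active, which CDC25 phosphatases and polo kinase promote. The spindle checkpoint then holds the anaphase-promoting complex (APC/C) back until every kinetochore is attached, after which cyclin B and securin are destroyed and sister chromatids part. Transcripts of these proteins are made mainly in late S phase, G2 and mitosis, and they fall in cells that leave the cycle. p27, encoded by Cdkn1b, is an inhibitor of cyclin-dependent kinases.

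Library totals lay between 39183624 and 61219345 counts, and no member had fewer than 119 counts in any library. Values are given as CPM, a gene's counts relative to the library total after TMM scaling, which corrects for library composition. All 10 fibroblast markers were detected, with a summed level of 41535 to 59582 CPM in EV control and 46060 to 48276 CPM in p27OE. That sum was mostly of Col1a1, Col1a2, Col3a1 and Fn1, and some single markers varied more. Dcn was at 76.1, 11.2 and 8.27 CPM in EV control 1, 2 and 3 and at 92.7, 25.2 and 8.43 CPM in p27OE 1, 2 and 3. Summed macrophage markers (15 genes, none at 0) were at 111 CPM in EV control 1 and 21.3 to 42.2 CPM in the other libraries, endothelial markers (8 genes) at 6.44 to 26.4 CPM and epithelial markers (6 genes) at 16.5 to 40.4 CPM. Of these, 4 endothelial and 3 epithelial markers were under 1 CPM in every library. The highest sums were mostly of Erg, at 22.5 CPM in EV control 1, and of Krt19, at 36.2 CPM in EV control 2. Erythroid markers (5 genes, 3 of them at 0 in every library) were under 1 CPM. The part of these cell types in the results was not tested. Libraries also differed within both groups in Y-linked transcripts (Uty, Kdm5d, Ddx3y and Eif2s3y, added up in CPM). That sum was 0.125, 126 and 124 CPM in EV control 1, 2 and 3 and 1.95, 57.1 and 137 CPM in p27OE 1, 2 and 3. The counts of members called are therefore also given from a model with a term for that level, and the members' differences are summarised within the low and the high level.

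Cdkn1b was at 43.9, 31.5 and 32.3 CPM in EV control 1, 2 and 3, and at 167, 232 and 337 CPM in p27OE 1, 2 and 3. The groups did not overlap, and Cdkn1b rose by 2.77 ± 0.29 on the log2 scale (SE; edgeR adjusted p = 0.028). The call was lost when any library other than EV control 1 was left out. Over all 6 fits with a library left out, the log2 fold change was 2.48 to 2.97. With a term for the Y-linked level it was 2.77 ± 0.25 (edgeR adjusted p = 0.000804).

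Mitotic transcripts were lower in p27OE cells in 48 of the 49 genes, and the exception was Pttg1, which encodes securin. In each of these 48 every p27OE library lay below every EV control library, whereas this held for 16.5% of all tested genes. The median log2 fold change of the 49 was −0.86, beside 0.01 over all tested genes, and the 48 ranged from −1.07 for Ccna2 to −0.56 for Cenpk. A log2 fold change below −0.5 was likewise found in 48 members and in 8.88% of all genes. Summed over the 49 genes, the level was 3496, 4368 and 4287 CPM in EV control 1, 2 and 3 and 2715, 2422 and 1605 CPM in p27OE 1, 2 and 3. These are bulk samples, in which fewer dividing cells and less mitotic RNA per cell cannot be told apart.

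**Figure D1:**
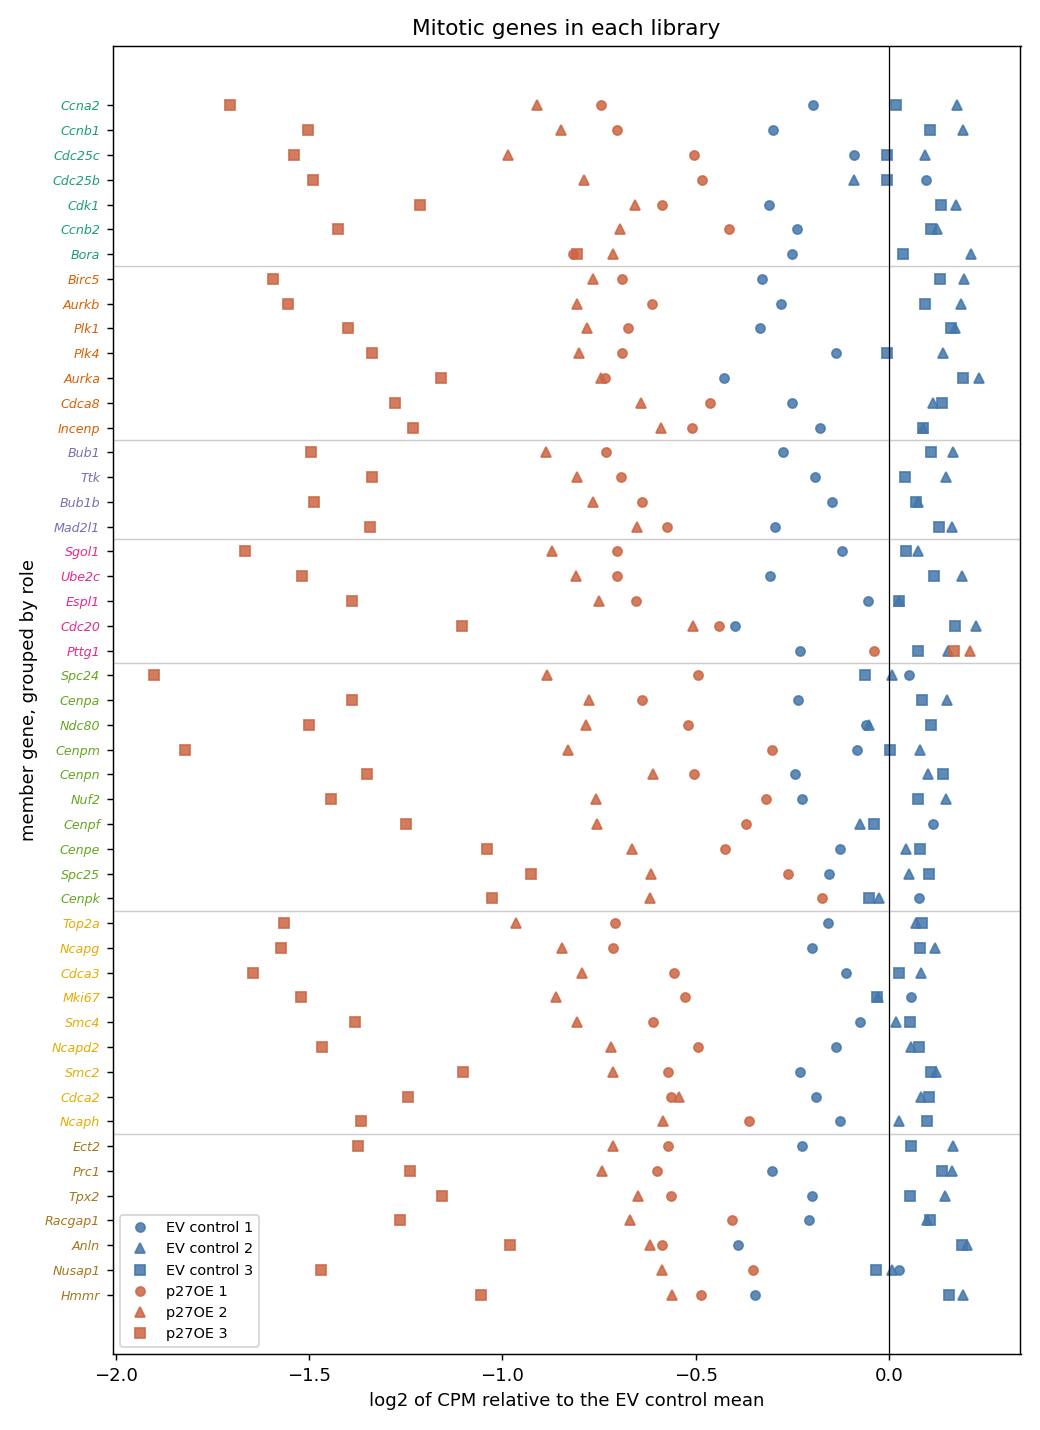
Level of each of the 49 mitotic genes in each library, as log2 of CPM relative to the mean of the EV control libraries (x axis), with genes on the y axis grouped and coloured by role in the order of the text. Blue points are the 3 EV control libraries and orange points the 3 p27OE libraries, with the replicate number given by the symbol. The orange points lie left of the blue ones in every row except Pttg1, and p27OE 3 lies farthest left in 47 rows.

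Few of these differences passed the test over all genes. With the group as the only term, 1 member, Bora, was called lower and 0 higher (edgeR, adjusted p under 0.05), beside 0.843% and 1.77% of all tested genes. At an unadjusted p under 0.05, 48 members and 12.9% of all genes were lower. DESeq2 called 46 members and 8.41% of all genes lower, and limma-voom 3 members and 0.958% of all genes. With a term for the Y-linked level, a model chosen with earlier results of these data known, 47 members fell and 0 rose (edgeR), against 16% of all genes called lower and 18% called higher. Cdc20 and Pttg1 did not pass there. That count was 32 without EV control 2 (7.27% of all genes), 23 without EV control 3 (6.27%) and 28 without p27OE 2 (9.93%). Without any other library it was 42 to 48, beside 13.7% to 22.3% of all genes. In the model with the group alone no gene of the whole table was called lower without any of EV control 2, EV control 3 and the 3 p27OE libraries (edgeR), so that the count of members was 0, with 41 to 48 of them lower at an unadjusted p under 0.05. Without EV control 1 it was 17, beside 6.75% of all genes. Without both libraries numbered 1, 43 members fell (8.9% of all genes).

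**Figure D2:**
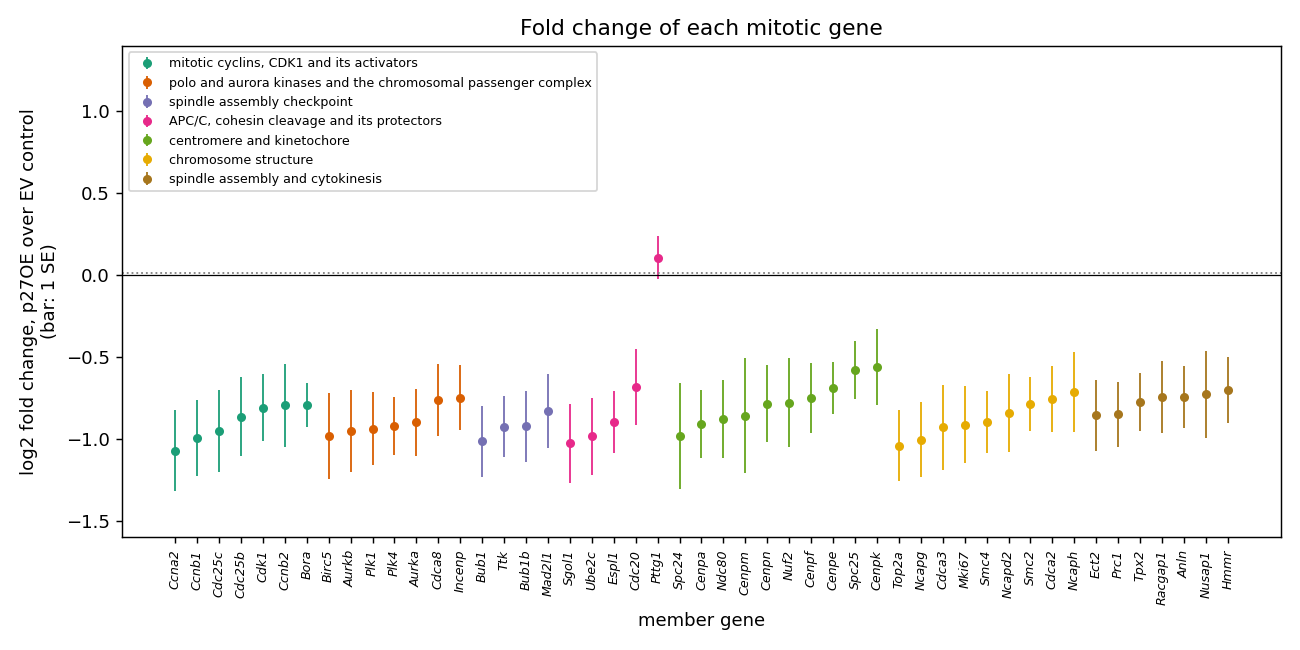
Log2 fold change of p27OE over EV control for each of the 49 genes (y axis; bars are 1 SE from the edgeR model with the group as the only term), with genes grouped and coloured by role along the x axis. The dotted line is the median of all tested genes, 0.01. Pttg1, at 0.11, is the only point above 0, and the others lie between −1.07 and −0.56.

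The size of the difference varied with the library. In 46 of the 49 genes the order was p27OE 1 above p27OE 2 above p27OE 3, an order found in 31.2% of all tested genes. The median member was at 67.3%, 59.2% and 38.3% of the EV control mean in p27OE 1, 2 and 3. In p27OE 3, 46 members were below 50% of that mean, and in p27OE 1 and p27OE 2 none was. Among the controls, EV control 1 was the lowest of the 3 for 43 members, with a median of 86.7% of the control mean. Cdkn1b and the Y-linked sum both increased from p27OE 1 to p27OE 2 to p27OE 3, so that with 3 libraries the level of p27 and whatever the Y-linked level stands for cannot be told apart as companions of the mitotic values. In EV control 1, Cdkn1b was the highest of the controls and the mitotic sum the lowest.

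**Figure D3:**
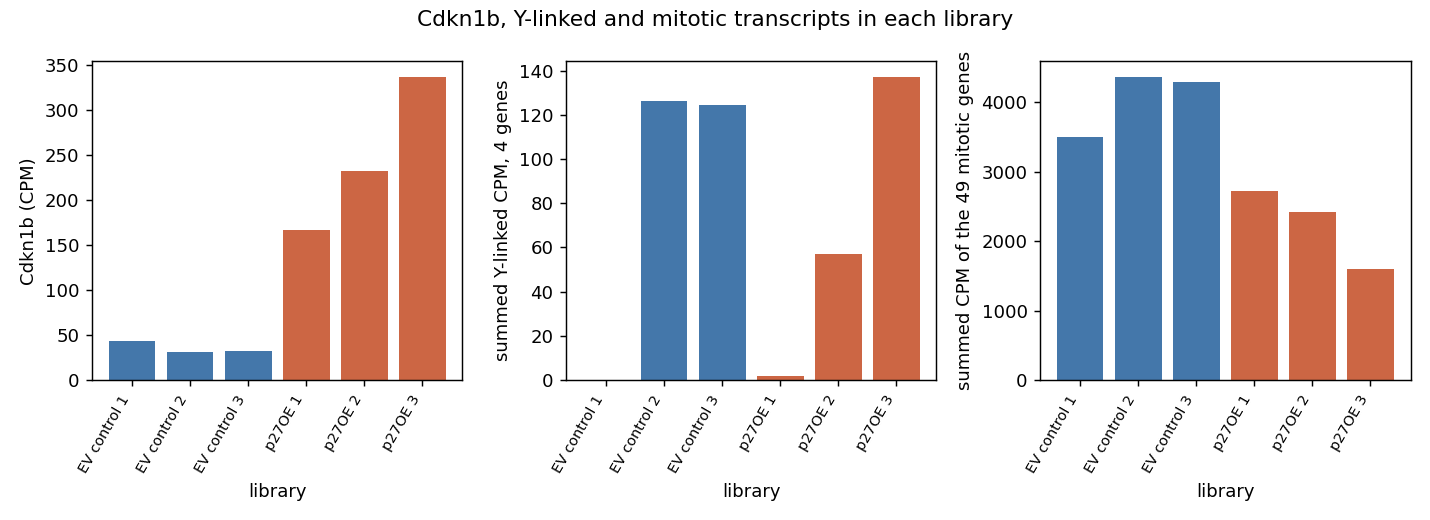
Level in each library (x axis) of Cdkn1b in CPM (left), of the summed CPM of 4 Y-linked genes (middle) and of the summed CPM of the 49 mitotic genes (right), with EV control libraries in blue and p27OE libraries in orange. From p27OE 1 to p27OE 3, Cdkn1b goes from 167 to 337 CPM while the mitotic sum goes from 2715 to 1605 CPM.

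Within the low Y-linked level, p27OE 1 was compared with EV control 1, and within the high level p27OE 3 with the mean of EV control 2 and 3, as differences in log2 CPM with a prior count of 2. These share no library. The median over members was −0.36 at the low level and −1.46 at the high level, where all tested genes had medians of −0.00 and 0.03. At each level 48 of 49 members were below 0. The low-level difference ranged from −0.60 for Espl1 to 0.19 for Pttg1, and the high-level one from −1.87 for Spc24 to 0.05 for Pttg1. A product of group and Y-linked level was negative for all 49 members, with a median of −1.16, and passed in 46 of them (edgeR adjusted p under 0.05), beside 4.94% of all genes called negative and 4.35% called positive. It is the change in log2 fold change from no Y-linked level to the highest. Bora, Cenpk and Pttg1 did not pass. For Cdkn1b the product was 1.53 ± 0.09 (SE; edgeR adjusted p = 3.64e-05), with log2 differences of 1.92 at the low level and 3.40 at the high level. Each group had a single library of low level, and p27OE 2 was intermediate. The change with level within EV control therefore rests on EV control 1. The SE and p of the product hold no spread between libraries of low level. Within EV control they rest almost only on the spread between EV control 2 and 3, which were the most alike. With a library left out, the model fits the rest of that library's group exactly. The count of members passing was 30 without p27OE 3, beside 1.16% of all genes. It was 42 to 46, beside 1.9% to 9.76% of all genes, without EV control 2, EV control 3, p27OE 1 or p27OE 2, and no fit was made without EV control 1. Across the 49 genes the low-level and high-level differences had a Pearson r of 0.53 and a Spearman rho of 0.38, as a description over genes that share the same libraries.

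**Figure D4:**
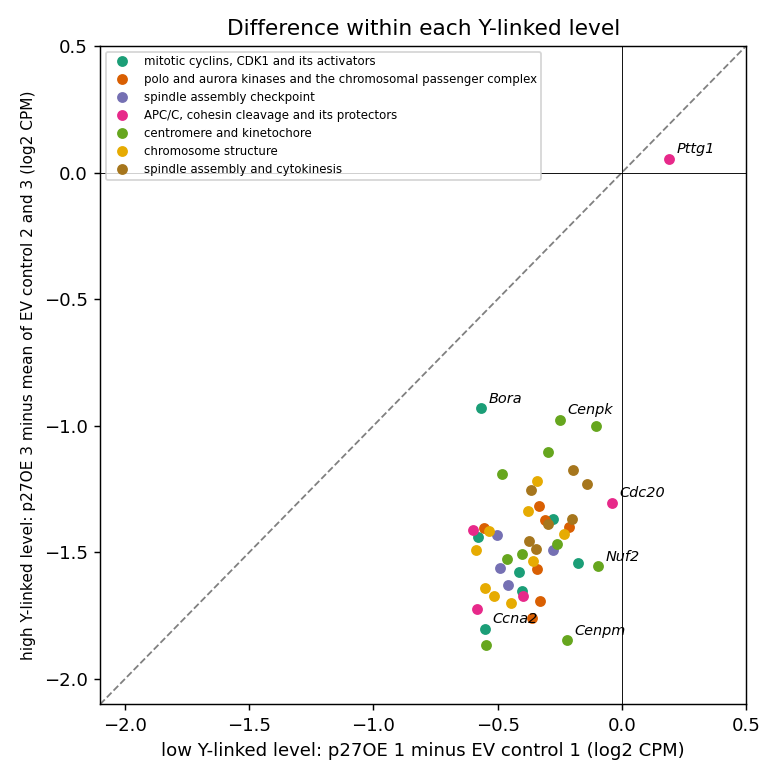
Difference between groups in log2 CPM for each mitotic gene at the low Y-linked level (x axis, p27OE 1 minus EV control 1) and at the high level (y axis, p27OE 3 minus the mean of EV control 2 and 3), coloured by role. The dashed line marks equal differences. All 49 points lie below it, with Pttg1 alone above 0 on both axes and Bora the closest to the line among those below 0.

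Promoters of genes expressed in G2 and mitosis often carry a cell cycle homology region (CHR), bound by the DREAM and MMB complexes with the core letters TTTGAA or TTTAAA, near CCAAT boxes bound by NF-Y. RefSeq windows (GRCm38.p6, from 250 bases before to 50 after the gene start) were matched for 40 of the 49 members. TTTGAA, searched on both strands, was in the window of 26 of the 40, or 65%, and in 14.1% of the 10416 tested genes with a window (20.2% of all 27025 genes with one). TTTAAA was in 9 of the 40, or 22.5%, against 11.2% of tested genes. CCAAT was in 31 of the 40, or 77.5%, against 42.6%, and a CHR core together with CCAAT in 26, or 65%, against 9.15%. The E2F site letters TTTCGCGC and TTCCCGCC were in 1 window each, those of Cdk1 and Cenpn, or 2.5% of members, against 0.73% and 4.59% of tested genes. Overlaps between motifs were allowed. A CHR core TTTGAA began within the 25 bases after the start in 10 of the 40 genes, or 25%, against 1.04% of tested genes. Members with TTTGAA had a median log2 fold change of −0.85 (26 genes), and those without it −0.84 (14 genes), which were nearly equal. With either CHR core it was −0.87 (30 genes), and with neither −0.80 (10 genes). For CCAAT it was −0.86 with the box (31 genes) and −0.78 without it (9 genes). These differences were not tested. A match is a description of the letters and was not tested as a site.

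**Figure D5:**
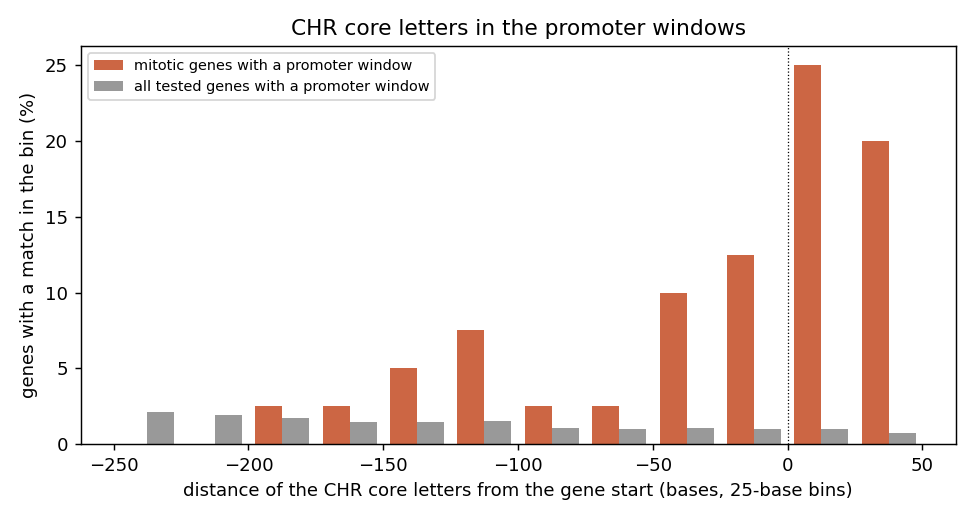
Share of genes whose promoter window holds the TTTGAA core on either strand, by 25-base bins of distance from the gene start (x axis, bases), for the 40 mitotic genes with a window (orange) and the 10416 tested genes with a window (grey). Matches of the mitotic genes gather around the start, with 25% of genes in the bin just after it, against 1.04% of tested genes.

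The windows below are of the member of smallest p in each of 5 roles, to show where the letters lie, and of Pttg1, chosen after its values were seen as the member that was not lower. Each runs 5′ to 3′ on the gene's strand, with matches to the 5 motifs above in capitals. A match on the other strand reads TTCAAA for the first CHR core and ATTGG for the CCAAT box, and TTTAAA reads alike on both. Positions count from 1 at the gene start, and the base before it is −1. Plk4, chr3:40799701-40800000, plus strand, has TTTAAA at −135. Ttk, chr9:83834439-83834738, plus strand, has CCAAT at −65 and −28 and TTTGAA on the other strand at 8. Smc2, chr4:52438971-52439270, plus strand, has TTTGAA on the other strand at −145 and 27 and CCAAT at −119. Espl1, chr15:102296043-102296342, plus strand, has CCAAT on the other strand at −44 and TTTGAA at −27. Cenpa, chr5:30666636-30666935, plus strand, has CCAAT on the other strand at −109 and −86, TTTAAA at −17 and TTTGAA at 17. Pttg1, chr11:43425932-43426231, minus strand, has none of the motifs searched in this window. The windows of Mad2l1, Ncaph, Nuf2 and Nusap1 had none either. These genes were lower, with log2 fold changes of −0.83, −0.71, −0.78 and −0.73. The RefSeq window of Pttg1 lies wholly inside the gene as GENCODE M21 annotates it, downstream of that start. The bases before the GENCODE start were not searched. Windows of other members, among them Cdca3, Cdca8 and Cenpm, likewise lie inside the GENCODE gene, and the motif shares above include them.
Plk4: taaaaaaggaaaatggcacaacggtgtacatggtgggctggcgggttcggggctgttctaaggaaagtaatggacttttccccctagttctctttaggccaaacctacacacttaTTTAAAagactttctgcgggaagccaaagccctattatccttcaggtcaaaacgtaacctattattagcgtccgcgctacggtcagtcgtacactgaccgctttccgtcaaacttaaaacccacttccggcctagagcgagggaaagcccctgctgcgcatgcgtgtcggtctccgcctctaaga
Ttk: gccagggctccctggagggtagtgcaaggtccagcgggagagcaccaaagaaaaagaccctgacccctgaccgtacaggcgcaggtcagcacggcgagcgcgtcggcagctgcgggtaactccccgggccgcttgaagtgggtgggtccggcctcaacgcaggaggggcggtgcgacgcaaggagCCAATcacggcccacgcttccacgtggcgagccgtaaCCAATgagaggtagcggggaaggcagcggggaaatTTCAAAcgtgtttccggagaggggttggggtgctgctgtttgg
Smc2: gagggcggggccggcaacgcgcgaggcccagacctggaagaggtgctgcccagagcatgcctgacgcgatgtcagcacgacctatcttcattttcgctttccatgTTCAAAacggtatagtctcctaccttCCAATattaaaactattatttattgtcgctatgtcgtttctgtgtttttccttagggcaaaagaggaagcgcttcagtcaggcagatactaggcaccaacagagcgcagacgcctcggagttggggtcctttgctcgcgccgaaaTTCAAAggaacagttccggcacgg
Espl1: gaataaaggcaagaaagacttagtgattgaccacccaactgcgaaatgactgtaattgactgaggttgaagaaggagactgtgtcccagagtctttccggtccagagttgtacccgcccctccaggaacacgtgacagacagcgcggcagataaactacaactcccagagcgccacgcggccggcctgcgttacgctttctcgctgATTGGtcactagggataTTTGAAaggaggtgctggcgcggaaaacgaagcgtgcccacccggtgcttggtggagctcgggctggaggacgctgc
Cenpa: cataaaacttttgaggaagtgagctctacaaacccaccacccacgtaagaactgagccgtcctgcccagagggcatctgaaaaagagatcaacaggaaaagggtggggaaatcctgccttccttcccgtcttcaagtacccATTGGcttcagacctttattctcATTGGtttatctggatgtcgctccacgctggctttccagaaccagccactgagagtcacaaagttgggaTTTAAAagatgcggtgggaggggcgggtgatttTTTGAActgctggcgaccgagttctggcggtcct
Pttg1: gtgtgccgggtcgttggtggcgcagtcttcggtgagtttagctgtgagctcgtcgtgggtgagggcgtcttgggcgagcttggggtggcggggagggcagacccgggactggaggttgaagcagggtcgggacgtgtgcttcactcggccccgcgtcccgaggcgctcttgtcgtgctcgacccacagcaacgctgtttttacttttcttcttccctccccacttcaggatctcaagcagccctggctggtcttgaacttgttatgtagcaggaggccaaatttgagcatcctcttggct

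Among the cyclins, CDK1 and its activators, all 7 genes lay lower, with a median log2 fold change of −0.86. Ccna2, cyclin A2, which acts in S phase and early mitosis, was at 104, 134 and 120.2 CPM in EV control 1, 2 and 3 and at 70.8, 63.2 and 36.4 CPM in p27OE 1, 2 and 3. Every p27OE value lay well under the lowest control. The difference, −1.07 ± 0.25 on the log2 scale (SE; edgeR adjusted p = 0.0675), was the largest of the 49 and did not pass. With the Y-linked term Ccna2 fell (edgeR adjusted p = 0.00894). Ccnb1, cyclin B1, the main partner of CDK1 in mitosis, was at 98.5, 139 and 131 CPM in the controls and at 74.5, 67.3 and 42.7 CPM in p27OE 1, 2 and 3. All 3 p27OE values lay under the lowest control, EV control 1 (−0.99 ± 0.23, SE; edgeR adjusted p = 0.0675). Ccnb2, cyclin B2, had a value of −0.79 ± 0.25. Cdk1, the kinase itself, was at 122, 170.3 and 166 CPM in the controls and at 100.5, 95.8 and 65.1 CPM in p27OE (−0.81 ± 0.20, SE; edgeR adjusted p = 0.0743). Here p27OE 1 and EV control 1 were the neighbours, at 100.5 and 122 CPM.

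Bora, which binds aurora A and lets it activate polo kinase before mitosis (chr14:99046222-99074540 in GRCm38), was the member called in the model with the group alone. It was at 16.1, 22.3 and 19.7 CPM in EV control 1, 2 and 3 and at 10.9, 11.7 and 11.0 CPM in p27OE 1, 2 and 3. Unlike most members its p27OE libraries were nearly level, with an SD of 0.456 CPM, while the controls had one of 3.08 CPM. Bora fell by 0.79 ± 0.13 on the log2 scale (SE; edgeR adjusted p = 0.045), and its product of group and Y-linked level, −0.42 ± 0.19, did not pass (edgeR adjusted p = 0.212). The call was lost without any library other than EV control 1 (edgeR adjusted p = 0.0917 to 0.215). The phosphatase genes Cdc25b and Cdc25c, whose products remove the inhibitory phosphates from CDK1, had values of −0.86 ± 0.24 and −0.95 ± 0.25 and fell with the Y-linked term.

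The polo and aurora kinases and the chromosomal passenger complex also had 7 of 7 genes lower, with a median of −0.92. Plk4, the kinase that starts centriole duplication, was at 47.6, 57.7 and 52.2 CPM in EV control and at 32.4, 30.0 and 20.7 CPM in p27OE (−0.92 ± 0.18, SE; edgeR adjusted p = 0.0521). Plk1, polo-like kinase 1 (chr7:122159439-122169873), was at 84.7, 120.3 and 119 CPM in the controls and at 66.8, 62.1 and 40.4 CPM in p27OE (−0.94 ± 0.22; edgeR adjusted p = 0.0703). In both genes p27OE 3 stood well below the other p27OE libraries. Aurkb, aurora B, the catalytic subunit of the passenger complex that corrects faulty attachments, was at 44.3, 61.2 and 57.4 CPM in the controls and at 35.2, 30.7 and 18.3 CPM in p27OE. The groups did not overlap (−0.95 ± 0.25, SE; edgeR adjusted p = 0.0822). The other subunits of that complex were near it: Birc5, survivin, at −0.98 ± 0.26, Cdca8, borealin, at −0.76 ± 0.22, and Incenp, the scaffold, at −0.75 ± 0.20. Aurka, aurora A, which matures centrosomes, was at −0.90 ± 0.20. With the Y-linked term all 7 fell, beside 16% of all genes called lower.

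Spindle checkpoint genes were lower in 4 of 4 cases, with a median of −0.92. Ttk, the kinase MPS1 that starts checkpoint signalling at kinetochores, was at 21.5, 27.2 and 25.3 CPM in EV control and at 15.2, 14.05 and 9.71 CPM in p27OE. The groups lay apart by −0.93 ± 0.19 on the log2 scale (SE; edgeR adjusted p = 0.0548). Bub1 and Bub1b, which encode kinetochore-bound checkpoint proteins, had values of −1.01 ± 0.22 and −0.92 ± 0.22, and Mad2l1, whose product MAD2 inhibits CDC20, had −0.83 ± 0.23. All 4 fell with the Y-linked term, beside 16% of all genes called lower. Their low-level median of −0.47 was the lowest of the 7 roles.

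The APC/C regulators, separase, securin and shugoshin were the group in which members parted, with 4 of 5 lower. Espl1, separase, the protease that cuts cohesin, was at 45.0, 47.5 and 47.5 CPM in EV control and at 29.6, 27.7 and 17.8 CPM in p27OE (−0.90 ± 0.19, SE; edgeR adjusted p = 0.0589). Pttg1, securin, which keeps separase inactive until anaphase (chr11:43420250-43426251), was at 12.4, 16.2 and 15.4 CPM in the controls and at 14.2, 16.9 and 16.4 CPM in p27OE. The groups overlapped (0.11 ± 0.13, SE; edgeR adjusted p = 0.653), with the highest value in p27OE 2 and the lowest in EV control 1. Without EV control 1 the value was −0.014. No other annotated gene shares exon bases with Pttg1 in GENCODE M21.

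Cdc20, the activator of the APC/C that the checkpoint inhibits, was at 114, 176 and 169 CPM in EV control and at 111, 106 and 69.9 CPM in p27OE. EV control 1 and p27OE 1, at 114 and 111 CPM, were nearly the same, and the value of −0.68 ± 0.23 on the log2 scale (SE; edgeR adjusted p = 0.13) missed the threshold with the Y-linked term as well (edgeR adjusted p = 0.0535). Its difference was −0.04 at the low level and −1.30 at the high level. Ube2c, the ubiquitin-conjugating enzyme of the APC/C, had a value of −0.98 ± 0.24. Sgol1, shugoshin, which shields centromeric cohesin, had one of −1.03 ± 0.24, and both fell with the Y-linked term.

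All 10 centromere and kinetochore genes were lower, with the 2 smallest differences of the 48 lower genes among them and a median of −0.78. Cenpa, the histone H3 variant that marks centromeres (chr5:30666777-30674830), was at 56.4, 73.8 and 70.5 CPM in EV control and at 42.7, 38.8 and 25.4 CPM in p27OE (−0.91 ± 0.21, SE; edgeR adjusted p = 0.0668). Cenpk, a member of the centromere-associated network of the inner kinetochore, was at 6.15, 5.72 and 5.62 CPM in the controls and at 5.17, 3.79 and 2.86 CPM in p27OE. It showed the smallest difference of the 48 (−0.56 ± 0.23, SE; edgeR adjusted p = 0.189), and p27OE 1 lay close under the controls. Cenpm and Cenpn, of the same network, had values of −0.86 ± 0.35 and −0.79 ± 0.23. Cenpe, a kinetochore motor, and Cenpf, a large kinetochore and nuclear matrix protein, had −0.69 ± 0.16 and −0.75 ± 0.21.

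The 4 subunits of the NDC80 complex, which couples kinetochores to microtubules, did not have the same values. Spc24 was at −0.98 ± 0.32, Ndc80 at −0.88 ± 0.24, Nuf2 at −0.78 ± 0.27 and Spc25 at −0.58 ± 0.18, and the ranges of 1 SE around the highest and the lowest of them, Spc24 and Spc25, overlapped. Nuf2 had a difference of −0.09 at the low level and −1.56 at the high level, whereas Ndc80 had −0.46 and −1.53. Differences between subunits were not tested. With the Y-linked term all 10 genes of the group fell, beside 16% of all genes called lower.

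Genes for chromosome structure, 9 of 9 lower with a median of −0.90, include condensin I, which compacts chromosomes, and topoisomerase IIα, which untangles them. Top2a (chr11:98992943-99024189) was at 250.2, 293 and 296 CPM in EV control and at 171, 143 and 94.2 CPM in p27OE. The log2 difference, −1.04 ± 0.22 (SE; edgeR adjusted p = 0.0577), came next to Ccna2 in size, and the product with the Y-linked level was −1.14 ± 0.09 (edgeR adjusted p = 0.000176). Mki67, the Ki-67 protein that coats mitotic chromosomes and serves as a proliferation marker, was at 206, 194 and 194 CPM in the controls and at 137, 109 and 69.0 CPM in p27OE. Its controls were close together, with EV control 1 the highest of them, unlike most members (−0.91 ± 0.24, SE; edgeR adjusted p = 0.0769).

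Smc2, a core ATPase subunit of both condensins, was at 98.6, 126 and 125 CPM in EV control and at 77.8, 70.6 and 53.8 CPM in p27OE (−0.79 ± 0.16, SE; edgeR adjusted p = 0.0574). Its partner Smc4 had a value of −0.90 ± 0.19. The condensin I subunits Ncapg, Ncapd2 and Ncaph were at −1.004 ± 0.23, −0.84 ± 0.24 and −0.71 ± 0.24. Cdca2, which targets a phosphatase to chromatin at mitotic exit, was at −0.76 ± 0.20, and Cdca3, linked to mitotic entry, at −0.93 ± 0.26. All 9 fell with the Y-linked term, beside 16% of all genes called lower.

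Spindle assembly and cytokinesis genes, 7 of 7 lower, had the smallest median of the 7 roles, −0.74. Tpx2, which activates aurora A on the spindle (chr2:152847964-152895321), was at 156, 197 and 185 CPM in EV control and at 121, 114 and 80.2 CPM in p27OE (−0.77 ± 0.17, SE; edgeR adjusted p = 0.0664). Prc1, which bundles the central spindle, had a value of −0.85 ± 0.20, and Ect2 and Racgap1, which direct RhoA at the cleavage furrow, had −0.86 ± 0.22 and −0.74 ± 0.22. Anln, anillin of the contractile ring, was at −0.74 ± 0.19, Nusap1, a microtubule binding protein, at −0.73 ± 0.26, and Hmmr, which supports spindle orientation, at −0.70 ± 0.20. In Hmmr and Anln the low-level difference was −0.14 and −0.20, against −1.23 and −1.17 at the high level. With the Y-linked term all 7 fell, beside 16% of all genes called lower.

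Per kilobase of exon (union of GENCODE M21 exons), levels of members spanned from Cdc20, at 82.0 ± 18.2 CPM per kb in EV control and 51.1 ± 11.98 in p27OE (SD, n = 3 each), to Cenpk, at 1.11 ± 0.05 and 0.754 ± 0.222. After Cdc20 came Plk1, at 49.2 ± 9.2 CPM per kb in EV control, Ccnb2, at 47.5 ± 6.4, and Ube2c, at 38.4 ± 6.8, and these neighbours lay within their spread of each other. At the low end Bora, at 3.76 ± 0.60, and Cdc25c, at 3.60 ± 0.23, were not apart beyond their spread. The order of levels was nearly the same in p27OE, with a Spearman rho of 0.98 across the 49 genes, which are not independent. Exons of 10 members share bases with another protein-coding gene, up to 22.8% of the exon length in Ube2c, and without a stated strand setting reads in those bases could belong to either gene.

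Other genes of mitosis, from lists without the members and without kinesins, were lower in 87 of 98 cases, with a median log2 fold change of −0.46. In the model with the group alone 4 of the 98 fell and 0 rose (edgeR), beside 0.843% and 1.77% of all tested genes. With the Y-linked term 66 fell and 1 rose, beside 16% and 18% of all genes. Kntc1, of the checkpoint complex that recruits dynein to kinetochores, was at 41.0, 43.4 and 42.2 CPM in EV control and 25.3, 24.3 and 18.3 CPM in p27OE. It fell by 0.90 ± 0.13 on the log2 scale (SE; edgeR adjusted p = 0.0348), and Cit, a cytokinesis kinase, fell by 0.97 ± 0.14 (edgeR adjusted p = 0.0348). Lin9 and Lin54, subunits of the MuvB core that binds CHR elements, fell by 0.73 ± 0.12 and 0.61 ± 0.10 (edgeR adjusted p = 0.0441 and 0.0431).

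These lists differed in size of difference. Counts called are from the model with the group alone, where 0.843% of all tested genes were called lower. Of 24 other centromere and kinetochore genes 23 were lower, with a median of −0.65 and 0 called; Pmf1, a kinetochore subunit, had a value of −0.83 ± 0.17. Of 10 other checkpoint genes 9 were lower (median −0.56, 1 called), with Trip13, a remodeller of MAD2, at −1.04 ± 0.23. Spindle and cytokinesis genes had 14 of 15 lower (median −0.78, 1 called), with Arhgap11a at −0.78 ± 0.15, and genes of mitotic transcription 7 of 9 (median −0.71, 2 called).

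The other lists of mitotic genes had medians nearer to 0. Their counts called also stand beside 0.843% of all tested genes called lower. For subunits of the APC/C and its regulators the median was −0.13, with 13 of 16 lower and 0 called; Anapc15 and Ube2s were at −0.42 ± 0.12 and −0.51 ± 0.15. Condensin II and cohesin genes had a median of −0.32, with 14 of 14 lower and 0 called, and Smc1a and Rad21, both cohesin subunits, at −0.38 ± 0.08 and −0.58 ± 0.14. The mitotic entry and phosphatase list had a median of −0.36 (7 of 10 lower, 0 called), with the kinase genes Nek2 and Mastl at −0.98 ± 0.19 and −0.70 ± 0.14. DNA replication genes, which are used in S phase, were lower in 34 of 34 cases, with a median of −0.63 beside −0.86 for the 49 members and 1 called. That gene was Cdc7, the kinase that fires origins, which fell by 1.08 ± 0.14 (SE; edgeR adjusted p = 0.0303), while Pole, a replicative polymerase subunit, was at −0.73 ± 0.14. Differences between lists were not tested.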

How the data were processed

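RNA was extracted on columns and libraries were made with a TruSeq kit, per the labels' protocols. The submitters' processing notes list mm10, Subread, featureCounts 1.4.6, Bowtie2 2.2.6 and TopHat2 2.0.14; the sources used here give no annotation, strand setting or filter. Raw read counts per gene symbol were deposited. Of 24062 symbols 5856 had no count, and filterByExpr left 13990.

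Counts were scaled by TMM and tested with edgeR 4.0.16 (glmQLFit, robust; glmQLFTest, two-sided; R 4.3.3) on the group alone, with Benjamini-Hochberg adjustment over all 13990 genes and calls at adjusted p under 0.05. Each SE is that of the log2 fold change, its size divided by the root of F. The members, gene lists, Y-linked term and other choices were made with earlier results of these data known. The lists used symbols of the table for 4 genes (Sgol2, Gsg2, Wapal and Emr1). Values in every library were given, by rule, for called members, the smallest p of each role, 7 listed genes, and the extremes of fold change and of level. Promoters came from RefSeq (GRCm38.p6), coordinates from GENCODE M21 (GRCm38, the assembly of mm10). A synonym match was kept only within 5 kb of the gene. Alternatives were other scalings and filters, DESeq2 1.42.0, limma-voom (3.58.1), a replicate block and omitted libraries.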

Additional observations from a re-analysis of the deposited data

Results flagged for a closer look

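The difference between p27OE and EV control varied with the Y-linked level of the libraries, which sets samples apart within both groups. Of the 49 mitotic genes, 46 passed the edgeR test of the product of group and level in the negative direction, beside 4.94% of all genes (4.35% in the positive direction), so that the groups lay farther apart at the high level. Among the cyclins and CDK1 the product was −1.32 for Ccna2, −1.32 for Ccnb1 and −1.16 for Cdk1 (log2, as all values here). Among the kinases it was −1.30 for Plk1, −0.90 for Plk4, −1.43 for Aurkb and −0.98 for Ttk. It was −1.35 for Cdc20, −0.85 for Espl1 and −1.16 for Cenpa. For the chromosome genes Top2a, Mki67 and Smc2 it was −1.14, −0.92 and −0.93, and for Tpx2 −0.95. The Cdkn1b difference varied with the level too, from 1.92 at the low level to 3.40 at the high level, with a product of 1.53. Each level rests on few libraries, and no spread was measured between libraries of low level within a group. What the level stands for was not tested.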

How the results depend on the processing

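The median of the members stayed below 0 under every alternative, from −1.13 to −0.83, and from −1.05 to −0.65 with a library left out. The count called lower, 1 with edgeR (0.843% of all genes), was 2 with a filter of 1 CPM in 3 libraries (1.45%), 3 with limma-voom (0.958%), 46 with DESeq2 (8.41%), 47 with the Y-linked term (16%), 43 without both libraries numbered 1 (8.9%), and 0 to 17 with a library left out (0% to 6.75%); it was the same with other scalings and with no filter. With the Y-linked term it was 23 to 48 with a library left out (6.27% to 22.3%), and the negative products were 30 to 46 (1.16% to 9.76%). Cdkn1b stayed between 2.48 and 2.97 with a library left out, and lost its call in 5 of these 6 fits. Pttg1, which overlapped between groups, ranged from −0.014, a change of sign, without EV control 1 to 0.19 without EV control 2. The cause of these shifts was not tested. With the replicate number as a block 42 members and 8% of all genes were called lower. Deviations from the group means, compared over genes, had r = 0.67, 0.04 and 0.50 between equal numbers, and those of EV control 2 were most like p27OE 3 (r = 0.56), so a number was treated only as a name. No product fit was made without EV control 1, which leaves EV control with high levels alone. The leave-one-out fits of the Y-linked models were added after the data were seen.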
